A study of Mus musculus with 12 samples.

Results

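The genes described here encode proteins that join cells to each other or to the matrix: cadherins and protocadherins, integrins, laminins, claudins, connexins, contactins and NCAMs. They were taken by symbol from 3 tables of mRNA ratios, 1 per day, deposited by the authors, and number 34 of the 2091 genes listed at any day. Each table lists 998 genes with the ratio of 2 libraries of AKR-2B cells, an established mouse fibroblast line grown as colonies in soft agar, a medium in which cells grow without attachment. Colonies were kept with vehicle or with TGFβ at 25 ng/mL for 2, 4 or 8 days, and all groups share the line and the medium. There was 1 mRNA library per condition and day, so no difference below has a replicate check and no test is given. The tables hold 499 ratios above 1 and 499 below 1 and no level per sample. A gene outside a table is therefore not shown to be unchanged or silent. Being listed depends on the ratio, so the sides and sizes below describe how the members were found and support nothing else.

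Cadherins join cells through calcium-dependent contacts between like molecules and are anchored inside the cell by catenins. Integrins are pairs of an alpha and a beta chain that bind matrix proteins such as collagen, laminin and vitronectin, and laminins are 3-chain proteins of basement membranes. Claudins seal tight junctions, and connexins form the channels of gap junctions. TGFβ is known for reshaping adhesion in mesenchymal and epithelial cells, and colony growth in soft agar takes place without the matrix contacts that fibroblasts use on plastic.

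No header says which library is the numerator. A ratio was taken as TGFβ over vehicle because the TGFβ target genes Pmepa1 and Ctgf then lie above 1. The authors' deposited table gives 5.41, 22.1 and 14.2 for Pmepa1 at days 2, 4 and 8, and 7.90 and 8.52 for Ctgf at the last 2 days. Read the other way, every direction below would invert. All 62 ratios of the members, and 99.9% of all 2994, reduce to 2 odd whole numbers, as do reads plus 0.5 in each library with no scaling for depth. The smallest reads that give a ratio are printed below; the true reads may be a larger multiple. The intervals are exact conditional binomial 95% intervals at those reads. They cover counting error only, and a difference in depth between the 2 libraries stays in every ratio. A larger whole number of 41 stands for at least 20 reads in 1 library.

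Members lay on both sides of 1 at each day: day 2 had 12 above and 5 below, day 4 had 12 on each side, and day 8 had 12 above and 9 below. Over all listed genes, 50.0% lie above 1 at each day, by construction. No member changed sides: 17 lay above 1 and 17 below at every day they were listed. Of 227 RefSeq protein-coding genes whose symbols have these names, 34 (15.0%) were listed at any day, beside 8.16% of all 21900 protein-coding genes. By day the shares were 7.49%, 10.6% and 9.25%, beside 3.92%, 4.01% and 4.05%. The shares over all genes leave out listed symbols with no match to a RefSeq protein-coding gene. Of the 2091 listed symbols 1788 matched, while all 34 members did. The members were chosen with earlier results known, so these shares are a description.

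The median ratio of the members above 1 was 5.33, 20.9 and 15.9 at days 2, 4 and 8, beside 4.33, 7.67 and 7 over all genes above 1. Below 1 the members' median was 11.2-fold, 11-fold and 15.0-fold lower, beside 11-fold, 11-fold and 12.6-fold. Reads behind the ratios were uneven. Of the members above 1, 3, 8 and 7 had a larger whole number of at least 41 at days 2, 4 and 8, against a background of 17.8%, 42.5% and 38.9% of the 499 genes on that side. Of those below 1, 2, 3 and 3 reached it, against 41.5%, 36.3% and 45.7%. The form of 0 reads in 1 library was taken by 22 of the 36 ratios above 1 (61.1%, beside 63.9% over all listed genes) and by 19 of the 26 below (73.1%, beside 56.5%). The counting interval included 1 for 20 of the 62 ratios, 8 at day 2, 8 at day 4 and 4 at day 8. Intervals were not computed over all listed genes, so this count has no background beside it.

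**Figure D1:**
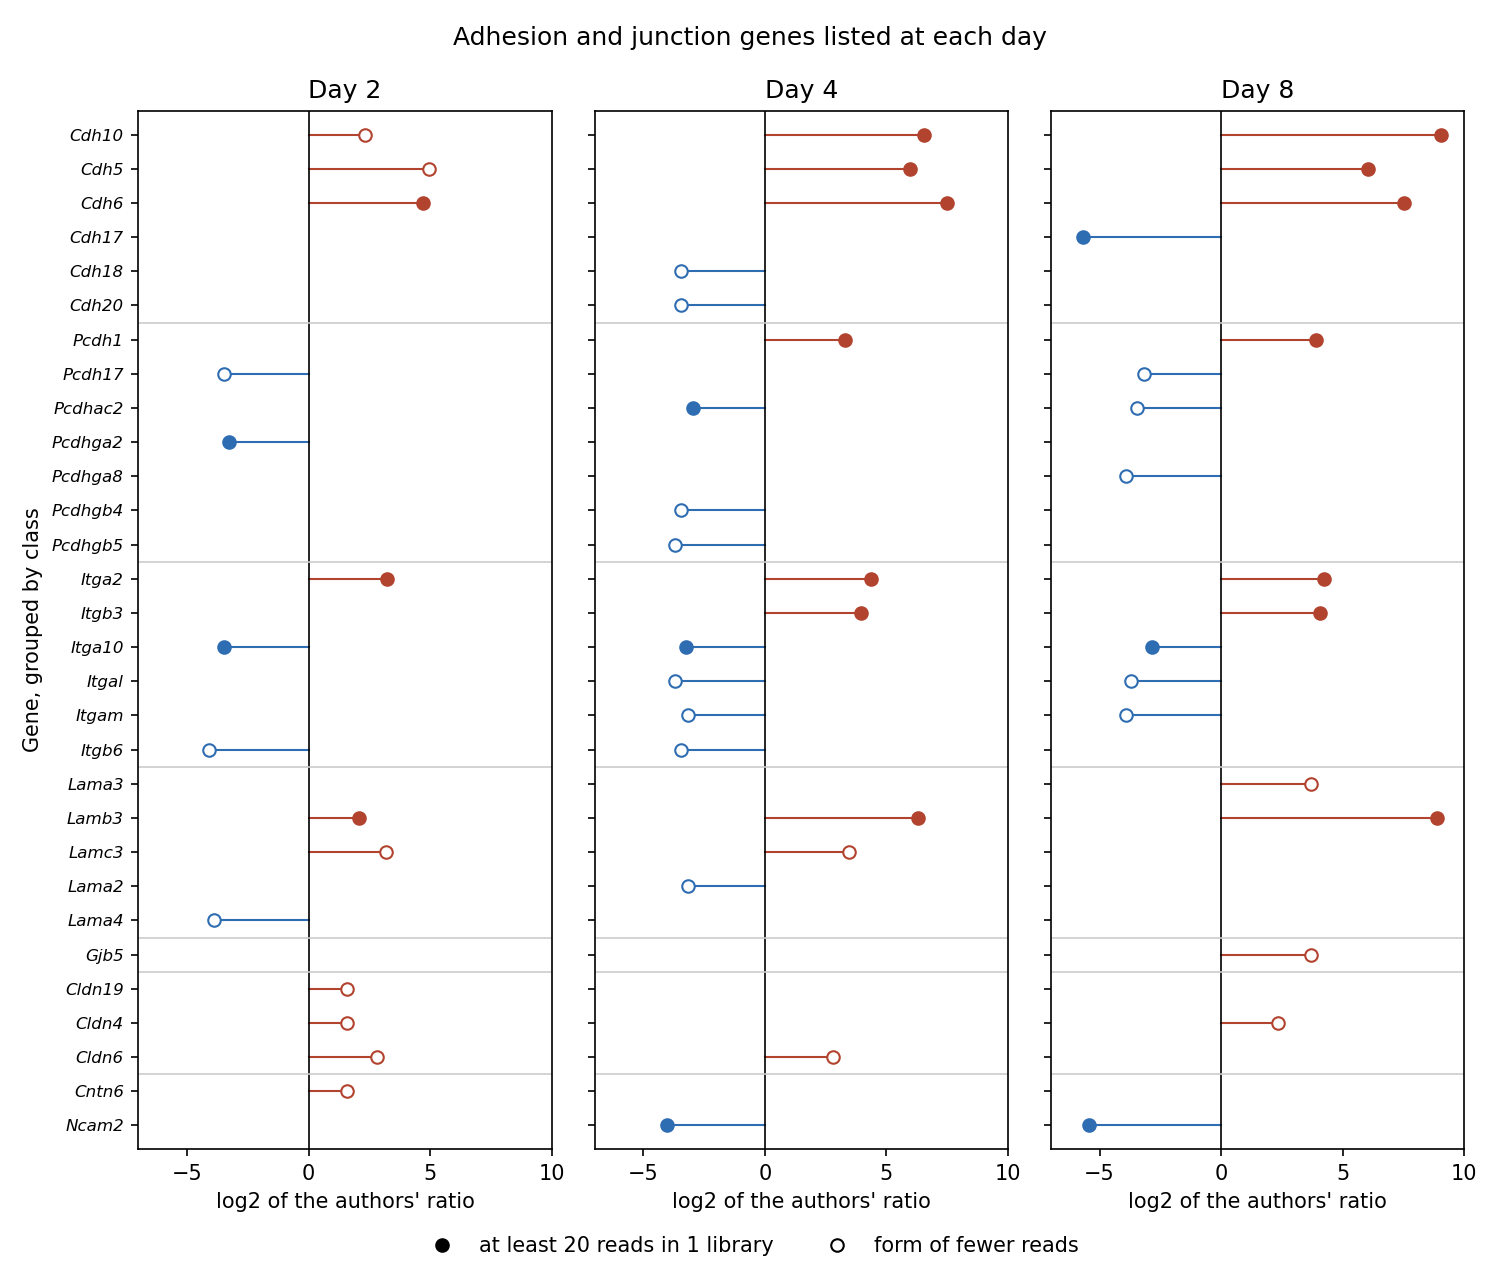
The authors' ratio (log2) of 30 of the 34 members at days 2, 4 and 8, grouped by class; red lines lie above 1, blue lines below, and a filled point marks a ratio resting on at least 20 reads in 1 library. Cdh10 and Lamb3 reach furthest above 1 at day 8, with ratios of 535 and 465, and most open points lie on the side below 1 or among connexins and claudins.

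Cadherins gave the largest ratios of the set. Cdh6, a type II cadherin of kidney and neural crest, had 960 reads with TGFβ against 36 with vehicle at day 2, 1177 against 6 at day 4, and 1000 against 5 at day 8. The ratios in the authors' deposited table were 26.3 (interval 19.1 to 38.3), 181 (89.9 to 536) and 182 (85.4 to 617). TGFβ reads were thus of similar size at the 3 days, while vehicle reads were fewer at days 4 and 8; since the totals of the libraries were not used here, reads of different days are not comparable as levels. Cdh10, a type II cadherin best known from brain, had 2 reads against 0 at day 2, 46 against 0 at day 4, and 267 against 0 at day 8. Its ratios of 5, 93 and 535 in the authors' deposited table depend on the 0.5 added to a vehicle count in the form of 0. With that 0 set to 3 reads Cdh10 was at least 15.3-fold higher at day 4 and at least 89.0-fold higher at day 8, and at day 2 both libraries were under this floor. The lower limits of the counting intervals lie below such floor values, at 71.9 for Cdh10 at day 8. By size Cdh10 ranked 3 among the 499 ratios above 1 at day 8 and Cdh6 ranked 9.

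Cdh6 and Cdh10 lie on the same chromosome, megabases apart, at 15:13028699-13176407 and 15:18818869-19016206 (mm10), with Cdh9 as the only protein-coding gene of RefSeq between them. Cdh9, and Cdh12 on the far side of Cdh10, were listed at no day. Cdh18, the next cadherin gene on the chromosome (15:22548898-23477491), was listed at day 4 alone and below 1, with 0 reads against 5 and an interval that included 1. The windows of 250 bases before the start sites of Cdh6 (chr15:13173676-13173925, minus strand) and Cdh10 (chr15:18820079-18820328, plus strand) are printed because these genes carry the largest cadherin ratios. Both windows lie inside the gene spans given above, so these start sites are not the outermost end of either gene. Here and below, sequences are from RefSeq (GRCm38.p6, the assembly called mm10) in the direction of the gene, and capitals mark matches on either strand to CAGAC (the SMAD-binding element) or GGAATG (the TEAD site).
Cdh6: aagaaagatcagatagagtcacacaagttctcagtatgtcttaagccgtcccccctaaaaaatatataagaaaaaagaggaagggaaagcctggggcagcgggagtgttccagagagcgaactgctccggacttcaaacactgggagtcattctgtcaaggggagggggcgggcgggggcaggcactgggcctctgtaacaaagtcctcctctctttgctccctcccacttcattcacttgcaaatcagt
Cdh10: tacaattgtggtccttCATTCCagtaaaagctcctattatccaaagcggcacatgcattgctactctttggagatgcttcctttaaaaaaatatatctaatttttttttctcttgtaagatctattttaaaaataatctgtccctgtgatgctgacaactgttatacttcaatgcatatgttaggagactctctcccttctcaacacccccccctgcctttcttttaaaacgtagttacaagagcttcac
The Cdh6 window, with a GC content of 51.2%, held neither motif. The Cdh10 window, with a GC content of 36.8%, held 1 match to GGAATG, 234 bases before the start. Of all 32851 windows in the table, 42.2% hold CAGAC and 12.6% hold GGAATG on either strand, and the median GC content is 52.4%. The AP-1 site TGANTCA, found in 6.75% of all windows, was in none of the 6 windows printed here. Such matches describe the letters only.

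Cdh5, the cadherin of endothelial cell junctions (8:104101613-104144504), had 15 reads with TGFβ against 0 with vehicle at day 2, 31 against 0 at day 4, and 32 against 0 at day 8. Its ratios were 31, 63 and 65 in the authors' deposited table, and with the 0 set to 3 reads Cdh5 was at least 5-fold, 10.3-fold and 10.7-fold higher. The lower limits of the intervals were smaller, at 3.59, 7.91 and 8.18. Of 11 endothelial marker genes, Cdh5 among them, 5 were listed at any day, beside 8.16% of all protein-coding genes. The others had few reads: Tek 1 against 0 at day 2 and 5 against 0 at day 8, Pecam1 4 against 0 at day 4, Kdr 3 against 0 at day 8, and Emcn 0 against 4 at day 8, with Emcn alone below 1. Their part in the Cdh5 ratio was not tested.

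Cdh17, a cadherin of liver and intestine, was the cadherin lowest against vehicle, with 0 reads with TGFβ against 25 with vehicle at day 8. Its ratio was 51.0-fold lower in the authors' deposited table, and at least 8.33-fold lower with the 0 set to 3 reads. The lower limit of the interval was 6.29-fold. Cdh20, a type II cadherin, likewise had 0 reads against 5 at day 4, with an interval that included 1. The cadherins often used to describe epithelial and mesenchymal states, Cdh1, Cdh2 and Cdh11, were listed at no day. None of 9 transcription factors known to repress epithelial cadherin, Snai1, Twist1 and Zeb1 among them, was listed either. The same held for 12 symbols of catenins and adherens junction plaque genes, which include older names of the same gene. With 8.16% of all protein-coding genes listed, lists this short can hold none.

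**Figure D2:**
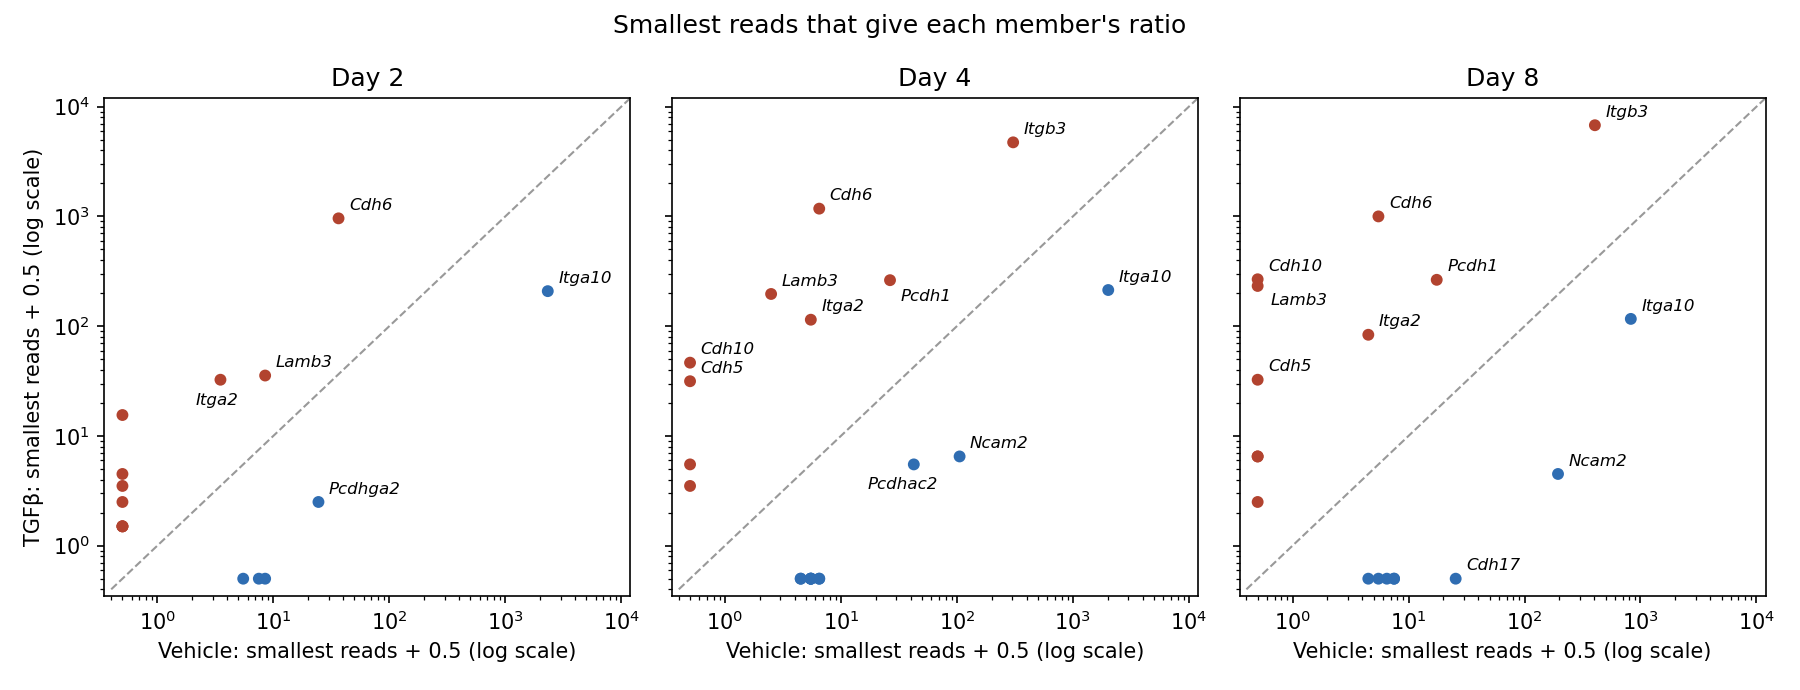
Smallest reads that give the ratio of each of 30 members, plus 0.5, with vehicle on the x axis and TGFβ on the y axis (both log scales) at days 2, 4 and 8; the dashed line is a ratio of 1 and names mark ratios with at least 20 reads in 1 library. Itgb3 at days 4 and 8 has the most TGFβ reads and Itga10 at each day the most vehicle reads, and the points along the left and lower edges have the form of 0 reads in 1 library.

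Of the 11 laminin genes in RefSeq, 6 (54.5%) were listed at any day, beside 8.16% of all protein-coding genes. Of those 6, 4 lay above 1, beside 50.0% of all listed genes at each day. Lamb3, a beta chain of the laminin that anchors epithelia (1:193294353-193343878), had 35 reads with TGFβ against 8 with vehicle at day 2, 196 against 2 at day 4, and 232 against 0 at day 8. Its ratios in the authors' deposited table were 4.18 (interval 1.99 to 10.9), 78.6 (26.8 to 815) and 465, the last at least 77.3-fold higher with the 0 set to 3 reads. The lower limit of the day 8 interval was 62.4. Lamb3 ranked 258 of 499 ratios above 1 at day 2, 16 at day 4, and 4 at day 8. The day 2 interval lies wholly below the day 4 interval, as it also does for Cdh6, on counting error alone and with depth unscaled.

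The alpha chain that joins the product of Lamb3 in that laminin is encoded by Lama3. Lama3 was listed at day 8, with 6 reads against 0 and a ratio of 13 in the authors' deposited table (at least 2.00-fold higher with the 0 set to 3 reads, with a lower interval limit of 1.18). The integrin chains of the hemidesmosome that bind this laminin, Itga6 and Itgb4, were listed at no day. Lamc3, a gamma chain, had 4 reads against 0 at day 2 and 5 against 0 at day 4, with intervals that included 1. Below 1 lay Lama4, a chain of vessel basement membranes, with 0 reads against 7 at day 2, and Lama2, the muscle laminin chain, with 0 against 4 at day 4. The interval of Lama2 included 1, and the lower limit for Lama4 was 1.44-fold. The window before the downstream of the 2 start sites of Lamb3 (chr1:193301993-193302242, plus strand) is shown because Lamb3 is the laminin with the largest ratio.
Lamb3: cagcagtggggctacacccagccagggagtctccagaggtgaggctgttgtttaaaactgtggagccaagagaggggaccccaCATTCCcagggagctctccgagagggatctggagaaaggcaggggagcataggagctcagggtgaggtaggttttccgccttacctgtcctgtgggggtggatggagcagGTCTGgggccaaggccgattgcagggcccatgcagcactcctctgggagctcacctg
It held 1 match to each motif, GGAATG at 167 bases and CAGAC at 57 bases before the start, both as the reverse complement, with a GC content of 61.2%.

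Integrins lay on both sides of 1, with Itga2 and Itgb3 above and Itga10, Itgb6, Itgal and Itgam below. Itgb3, the beta chain of the vitronectin receptor (11:104608000-104670476), had the most reads of any member: 4732 with TGFβ against 305 with vehicle at day 4, and 6777 against 404 at day 8. The ratios in the authors' deposited table were 15.5 (interval 13.8 to 17.5) and 16.8 (15.2 to 18.6), whose intervals overlap. Itga2, an alpha chain of a collagen receptor (13:114833081-114932100), had 32 reads against 3 at day 2, 114 against 5 at day 4, and 83 against 4 at day 8. Its ratios of 9.29 (3.34 to 54.4), 20.8 (9.49 to 71.6) and 18.6 (7.81 to 77.9) in the authors' deposited table have overlapping intervals and give no order of the days.

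Itga10, an alpha chain of another collagen receptor best known from cartilage (3:96645584-96664519), was the only member listed below 1 at all 3 days. It had 208 reads with TGFβ against 2325 with vehicle at day 2, 213 against 2018 at day 4, and 116 against 825 at day 8. In the authors' deposited table this was 11.2-fold (interval 9.70 to 12.9), 9.45-fold (8.22 to 11) and 7.09-fold (5.85 to 8.71) lower. The intervals of days 2 and 8 do not overlap, with depth unscaled. Divided by the midpoint of the listing limits of the day, the ratios were 0.137, 0.125 and 0.167. Among these values day 2 stayed below day 8, while the order of days 2 and 4 turned. No interval was computed for the divided ratios, so they give no order of the days. Both Itga2 and Itga10 pair with the beta chain of Itgb1, which was listed at no day, as was Itgav, the partner of Itgb3.

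Itgb6, a beta chain known for activating latent TGFβ in epithelia, had 0 reads with TGFβ against 8 with vehicle at day 2, and 0 against 5 at day 4. Its ratios in the authors' deposited table were 17.0-fold and 11-fold lower. The lower limit of the interval was 1.71-fold at day 2, and the interval of day 4 included 1. The leukocyte integrin chains Itgal and Itgam also lay below 1 at days 4 and 8: Itgal had 0 reads against 6 at both, and Itgam 0 against 4, then 0 against 7. The interval of Itgam at day 4 included 1. The lower limits were 1.18-fold for Itgal at both days and 1.44-fold for Itgam at day 8. Itgal and Itgam were the only 2 of 13 leukocyte marker symbols listed, beside 8.16% of all protein-coding genes. The 13 include an older name of the same gene, and Ptprc and Cd68 were not among those listed.

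The windows of the collagen receptor chains Itga2 (chr13:114932101-114932350, minus strand) and Itga10 (chr3:96645334-96645583, plus strand) are given since these genes of like function lay on opposite sides of 1 at all 3 days.
Itga2: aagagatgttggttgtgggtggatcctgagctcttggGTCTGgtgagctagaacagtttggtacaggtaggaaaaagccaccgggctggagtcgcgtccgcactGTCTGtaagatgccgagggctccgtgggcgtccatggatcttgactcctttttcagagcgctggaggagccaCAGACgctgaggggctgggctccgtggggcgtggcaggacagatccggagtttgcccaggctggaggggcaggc
Itga10: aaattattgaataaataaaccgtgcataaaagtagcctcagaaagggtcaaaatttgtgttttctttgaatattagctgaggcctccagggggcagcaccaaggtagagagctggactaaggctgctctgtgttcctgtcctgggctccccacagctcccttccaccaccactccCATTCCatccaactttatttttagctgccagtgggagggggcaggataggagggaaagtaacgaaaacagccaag
That of Itga2 held 3 matches to CAGAC, starting 213, 146 and 74 bases before the start site, and none to GGAATG. That of Itga10 held 1 match to GGAATG, 75 bases before the start site, and none to CAGAC.

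**Figure D3:**
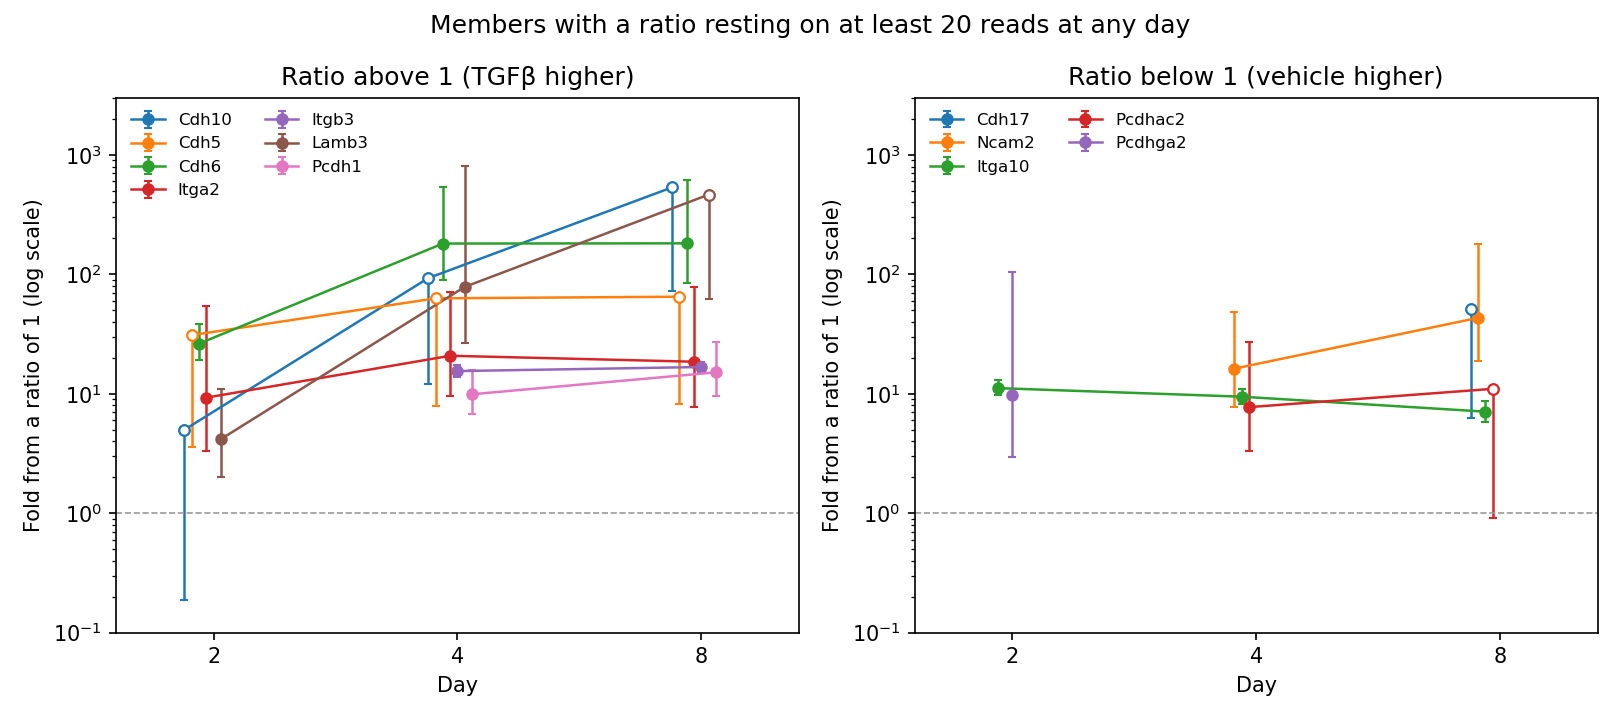
Fold from a ratio of 1 (log scale) at days 2, 4 and 8 for 12 of the 13 members with at least 20 reads in 1 library at any day, 7 above 1 on the left and 5 below on the right; bars are 95% counting intervals at the smallest reads, and open points have the form of 0 reads in 1 library, with no upper bound. The day 4 intervals of Cdh6 and Lamb3 lie above their day 2 intervals, those of Cdh10 have no upper bound and give no order, and Itga10 stays between 7.09-fold and 11.2-fold lower.

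Protocadherins are cadherin relatives best known from neurons. Of their 69 genes in RefSeq, 7 (10.1%) were listed at any day, near the 8.16% of all protein-coding genes. Of these, 1 gene lay above 1 and 6 below, beside 50.0% of all listed genes above 1 at each day. Pcdh1, also found in airway epithelium, had 262 reads with TGFβ against 26 with vehicle at day 4 and 264 against 17 at day 8. The ratios were 9.91 (interval 6.72 to 15.7) and 15.1 (9.52 to 27.1) in the authors' deposited table, with overlapping intervals. Pcdh17 had 0 reads against 5 at day 2 and 0 against 4 at day 8, within counting error of 1. The 5 others belong to the clustered protocadherins, whose transcripts share their last exons within a cluster, so reads cannot be assigned with certainty to 1 of them. Pcdhac2 had 5 reads against 42 at day 4 (7.73-fold lower in the authors' deposited table, interval 3.33 to 27.2). At day 8 it had 0 against 5, with an interval that included 1. Pcdhga2 had 2 against 24 at day 2 (9.80-fold lower in the authors' deposited table, 2.98 to 105). Pcdhgb4 and Pcdhgb5 at day 4 and Pcdhga8 at day 8 had 0 reads with TGFβ and 5, 6 and 7 with vehicle. The interval of Pcdhgb4 included 1, and the lower limits for Pcdhgb5 and Pcdhga8 were 1.18-fold and 1.44-fold. All 5 lay on the lower side, and only Pcdhac2 was listed at more than 1 day.

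Ncam2, a neural adhesion molecule of the immunoglobulin family (16:81200697-81624290), lay below 1 at days 4 and 8. It had 6 reads with TGFβ against 105 with vehicle, then 4 against 194, and was 16.2-fold (interval 7.78 to 48.8) and 43.2-fold (18.6 to 180) lower in the authors' deposited table. The intervals overlap. Its window (chr16:81200447-81200696, plus strand), shown because its ratio at day 8 was the furthest below 1 among those with reads in both libraries, has a GC content of 75.2% and none of the motifs.
Ncam2: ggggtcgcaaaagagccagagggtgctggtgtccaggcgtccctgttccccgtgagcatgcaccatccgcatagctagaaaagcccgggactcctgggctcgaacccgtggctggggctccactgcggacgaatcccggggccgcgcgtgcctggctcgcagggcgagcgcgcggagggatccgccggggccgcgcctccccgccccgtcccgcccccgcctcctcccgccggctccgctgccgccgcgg
Cntn6, a contactin of neurons, was listed above 1 at day 2 with 1 read against 0. Of the 10 nerve and glia marker genes, Tubb3 alone was listed, near the 8.16% of all protein-coding genes. It had 46 reads against 8 at day 4.

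Of 20 connexin genes in RefSeq, 4 (20%) were listed at any day, and of 35 claudin genes 3 (8.57%), beside 8.16% of all protein-coding genes. Their ratios lay mainly above 1, beside 50.0% of all listed genes at each day. None of the 14 ratios reached 20 reads. Gjb5, a connexin of skin, had 6 reads with TGFβ against 0 with vehicle at day 8. Its ratio was 13 in the authors' deposited table, or at least 2.00-fold higher with the 0 set to 3 reads, with a lower interval limit of 1.18. Gja1, the common connexin of fibroblasts, was listed at no day.

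The claudins Cldn4, Cldn6 and Cldn19 had 1 to 3 reads with TGFβ and 0 with vehicle wherever listed, too few to show a difference at this depth. At day 2 Cldn4, Cldn19 and Cntn6 stood at the smallest ratio listed above 1, which was 3 and was shared by 186 of the 499 genes. At day 8 Cldn4 stood at the limit of 5, shared by 108. Nearest to the limit below 1 was Itga10 at day 8, at 7.09-fold against a limit of 7-fold. Of 12 epithelial marker genes, 3 were listed, beside 8.16% of all protein-coding genes. Besides Cldn4 they were Krt8, with 16 reads against 0 at day 2 and 21 against 2 at day 4, and Krt7, with 0 against 5 at day 2. Their part in the claudin, connexin and laminin ratios was not tested. No desmosomal cadherin of 9 and no nectin of 4 was listed, and at a share of 8.16% of all protein-coding genes classes this small can hold none.

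**Figure D4:**
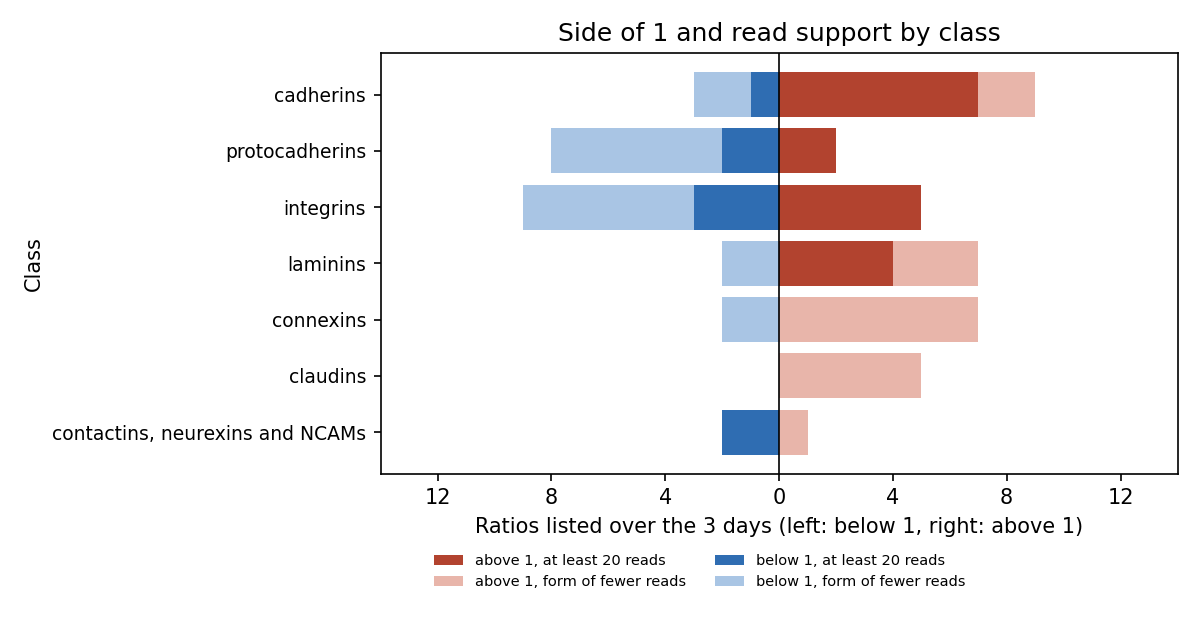
Number of ratios listed over the 3 days for each class, to the right above 1 and to the left below 1, with dark bars for ratios resting on at least 20 reads in 1 library. Cadherins have 7 such ratios above 1 and 1 below, integrins 5 and 3, laminins 4 and 0, and connexins and claudins have none.

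Recurrence of the members was mixed: 8 of 34 (23.5%) were listed at all 3 days, beside 11.3% of the 2091 genes. A further 12 were listed at 2 days, and 5 above 1 and 9 below at 1 day only. For members listed at fewer than 3 days no share over all genes was computed. All 8 members listed at the 3 days stayed on their side, as did 97.5% of the 236 genes listed at all 3 days. Among them were Cdh5, Cdh6, Cdh10, Itga2 and Lamb3 above 1 and Itga10 below. With at least 20 reads at each day, the number was 4: Cdh6, Itga2, Lamb3 and Itga10.

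Other adhesion genes were followed through lists written with earlier results of these data known, and their counts stand beside the 8.16% of all protein-coding genes listed at any day. Some lists hold an older symbol beside the current one of the same gene, so their sizes count symbols and not distinct genes. Of 13 cadherin relatives outside the families above, 4 were listed, and Dchs1 and Fat4, a ligand and receptor pair of planar cell polarity, lay below 1. Dchs1 had 9 reads with TGFβ against 81 with vehicle at day 2, 6 against 152 at day 4, and 17 against 231 at day 8. Its ratios in the authors' deposited table were 0.117, 0.0426 and 0.0756. Fat4 had 16 against 216 at day 8, or 13.1-fold lower in the authors' deposited table. Celsr2 at day 2 had 0 reads against 6, and Ret 2 against 0.

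Of 14 symbols written down for desmosomes and hemidesmosomes, keratins and membrane proteins among them, 5 were listed. The plakophilins Pkp1 and Pkp3, which link desmosomal cadherins to the plaque, lay above 1: Pkp1 had 7, 3 and 22 reads against 0 at days 2, 4 and 8, and Pkp3 30 against 2 at day 4 and 24 against 2 at day 8. The plaque protein gene Ppl lay below 1, with 9 reads against 152 at day 4 and 13 against 98 at day 8, as did Evpl with 1 against 11 at day 8. Krt14 had 3 against 0 at day 2. Of 31 focal adhesion symbols none was listed. Of 17 tight junction genes 1 was listed, near the share of all genes: Marveld2, with 2 reads against 0 at day 4.

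Of 29 basement membrane genes and integrin ligands, 9 were listed. On the upper side were 2, 5 and 3 of them at days 2, 4 and 8, and on the lower side 2 at each day. The upper counts at days 4 and 8 include Ctgf, whose side was fixed by its use to set the direction. Not every gene of this list far from 1 is named below, and some left out lay further above 1 than the collagen genes. The type IV collagen genes lay on both sides. Col4a3 had 323 reads against 102 at day 2 and 243 against 46 at day 4 (3.16 and 5.24 in the authors' deposited table), and Col4a4 333 against 60 at day 4 (5.51 in the authors' deposited table). Col4a6 had 74 against 706 at day 4 and 53 against 485 at day 8, with ratios of 0.105 and 0.110 in the authors' deposited table. Nov, a matricellular integrin ligand, had 72, 48 and 36 reads with TGFβ against 1436, 1028 and 1042 with vehicle at days 2, 4 and 8. Its ratios in the authors' deposited table were 0.0505, 0.0472 and 0.0350. Of 30 symbols of immunoglobulin and other adhesion genes, 9 were listed, with 4, 2 and 3 on the upper side and 1, 0 and 1 on the lower side at days 2, 4 and 8. Only Mcam at day 8 (174 reads against 29) and Boc at day 2 (86 against 24) had 20 reads or more. Of 22 synaptic adhesion genes 2 were listed, and Lrrc4c, a netrin-G ligand, had 60, 10 and 83 reads with TGFβ against 6, 0 and 8 with vehicle at days 2, 4 and 8. Of 3 pannexins, Panx2 was listed, with 0 against 5 at day 4. Of 11 fibroblast markers, Fap alone was listed, near the 8.16% of all protein-coding genes, with 13 reads against 0 at day 8. The tables give no levels against which the fibroblast label could be checked.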

How the data were processed

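Each mRNA table was deposited by the authors as a ratio (fold) per gene for 1 day. Per the submitters' processing notes, edgeR 3.9 and mm10 were used, with no role stated; no source used here names the aligner or the counter. Per the labels, TruSeq libraries were made from colony RNA, 1 per condition and day, so no replicate exists and depth is unknown. Here each printed ratio was reduced to its smallest whole numbers (Python 3.11.15, SciPy 1.17.1), a step tested on simulated data, and the odd numbers were read as reads plus 0.5. Exact conditional 95% intervals used those reads, and a count of 0 was also set to 3. No test was made. The 34 symbols were all matched to RefSeq as given. Of them 17 have a promoter in the sequence table, too few for a comparison of promoters over the set.

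The members and lists were chosen with earlier results of these data known. Single results of 4 members are not reported here, in text or plots; counts over all 34 include them. Full values were given for Cdh6, Cdh10 and Lamb3, for members listed at 2 or 3 days, and for the highest and lowest of each class, those 4 apart, with up to 4 genes of each other list. Genes of those lists beyond 4, Tubb3 and Fap among the markers, and the unlisted genes were named after their values were seen. Alternatives changed the read minimum, the form of 0 reads, the symbol pattern, the fold, the centring and the offset. The miRNA tables were not used here.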

Additional observations from a re-analysis of the deposited data

Results flagged for a closer look

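Lrrc4b, a synaptic adhesion gene outside the families described above, was the only gene of the adhesion lists found on both sides of 1. In the authors' deposited table its ratio was 3 at day 2, with 1 read against 0, and 0.0909 at day 4, with 0 against 5. The difference between the days was not tested, and both values lie within counting error of 1.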

How the results depend on the processing

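With ratios of at least 20 reads only, 3 members lay above 1 and 2 below at day 2, 3 below at day 4, 7 above and 3 below at day 8, and 4 were listed at all 3 days. With ratios free of the form of 0 reads, the numbers above and below were 4 and 2, 6 and 3, and 4 and 2 at days 2, 4 and 8, with 3 at all 3 days. At 10-fold or more, 2 lay above 1 at day 2 and 2 were listed at all 3 days. At 10-fold or more after division by the midpoint of the listing limits (0.655, 0.845 and 0.845, which multiplies every ratio by 1.53, 1.18 and 1.18), 5 lay above and 1 below at day 2, 4 below at day 4, and 3 at all 3 days. Fewer ratios qualify by construction in each case. The other counts stayed within 1.5 times, and leaving out look-alike names removed 0 members. No member's ratio crossed 1 with 1 read added (62 ratios), with 0 set to 3 reads (33 ratios with more than 3 reads in the other library) or after centring (62). None could cross by construction, because each change is too small to move a listed ratio past 1, so this is no check of the sides. Centring took 5 ratios outside their counting interval, those of Cdh6 (day 2, 40.2), Itga10 (days 2 and 4) and Itgb3 (days 4 and 8). No paired analysis was possible because each condition had 1 library at each day, the days are time points rather than replicates, and a gene is listed at a day only for its ratio there.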
